A study of Mus musculus with 22 samples.

Results

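The cytosolic ribosomal protein genes encode the proteins that, with the ribosomal RNAs, build the small and the large subunit of the ribosome. They were chosen by name from the expression table: symbols of the form Rpl or Rps with a number, with an optional a, x or l and a further digit, plus Rplp0, Rplp1, Rplp2, Rpsa and Fau. Of 23953 symbols, 85 met the rule, 51 of the large and 34 of the small subunit. They had 106 transcripts in the table, and the transcript with the highest mean level was kept for each symbol.

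The series asked how mutant huntingtin, which carries the long polyglutamine stretch of Huntington's disease, acts in mouse myeloid cells. BV2, an immortalised microglial line, carried a lentiviral vector with a CMV promoter that was empty (pCDH) or drove an amino-terminal piece of human huntingtin. That piece had 15 glutamines (Nwt, here the wild-type fragment) or 128 (Nmu, the mutant fragment). Each of these 3 constructs gave 2 RNA libraries of untreated cells, 1 of 24 h and 1 whose time is 48 h in the labels and 6 h in the table's header. It is called the second time, and no order is assumed. Every BV2 group had been transduced, and the labels describe 1 transduced line per construct. Primary microglia, sorted from adult cortex, striatum and hippocampus as CD11b+ cells with low CD45, and macrophages grown from bone marrow came from mice with 7 glutamines (Q7/7, wild-type) or 175 glutamines (Q175/175, mutant) in both huntingtin alleles, 1 library each. No source used here gives the animals' exact age or number. Nor do the labels say whether libraries stem from separate cultures or animals, so a p-value covers the spread among these libraries alone, and that spread may be technical.

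Most ribosomal proteins are needed in equal numbers in each ribosome, and ribosomal protein genes are among the most highly transcribed in growing cells. Their messenger RNAs begin with a run of pyrimidines, the terminal oligopyrimidine (TOP) motif, through which the kinase mTOR controls their translation. Many have processed pseudogenes, copies of the messenger RNA inserted elsewhere in the genome, whose sequence is so close to that of the gene that short reads may align to both.

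The TOP run and the sites of transcription factors lie at the gene starts, which are shown first because the expression and the binding data both bear on them. RefSeq's promoter table (GRCm38.p6 assembly) held 64 of the 85 genes, with 76 starts. The windows below are 30 bases, 15 on each side of the annotated start, written in the direction of transcription. Capitals mark unbroken runs of at least 5 pyrimidines (C or T) that reach into the stretch from 4 bases before to 10 after the start. Rplp0 and Rpl4 are shown as genes with no such run, though Rpl4 has a pyrimidine run that ends just before the stretch and so is not counted. The 8 genes were picked after their letters were seen.
Rpl35 (chr2:39005117-39005146, - strand): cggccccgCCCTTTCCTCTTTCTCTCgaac
Rpl7a (chr2:26910792-26910821, + strand): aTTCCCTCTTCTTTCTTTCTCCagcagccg
Rpl27a (chr7:109519180-109519209, + strand): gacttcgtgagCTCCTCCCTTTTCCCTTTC
Fau (chr19:6057932-6057961, + strand): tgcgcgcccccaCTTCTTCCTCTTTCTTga
Rplp2 (chr7:141447636-141447665, + strand): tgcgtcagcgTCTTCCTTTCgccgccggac
Rps18 (chr17:33955651-33955680, - strand): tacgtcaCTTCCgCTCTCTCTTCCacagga
Rplp0 (chr5:115559452-115559481, + strand): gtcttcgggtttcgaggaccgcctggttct
Rpl4 (chr9:64173372-64173401, + strand): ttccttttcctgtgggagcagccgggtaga
Of the 76 member starts, 44 (57.9%) had a run that reached into the stretch, against 36.5% of the 32851 promoters in the table. The median share of C and T from 4 bases before to 10 after the start was 57.1% in the members and 50.0% in all promoters. CTTCC on the sense strand in that stretch was found in 15.8% of member promoters and 2.6% of all, and CTTTT in 3.9% and 1.3%. These counts describe letters at annotated starts, and RefSeq starts can lie some bases from those used in these cells.

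Further upstream, the core letters of ETS family sites were searched because PU.1, a myeloid ETS factor, was mapped in these cells. CCGGAAG, on either strand, stood in 35.5% of member promoters from 250 bases before to 50 after the start and in 8.9% of all 32851. The PU.1-like GAGGAAGT, on either strand, stood in 3.9% and 3.2%. CACGTG, the E-box bound by MYC among others, stood in 10.5% and 7.2%, and TATAAA, on the sense strand from 50 to 10 bases before the start, in 1.3% and 2.4%. The C/EBP letters TTGCGCAA and TTGCATAA were found in 0 member promoters, and in 0.2% and 0.7% of all promoters. The reverse complement of CCGGAAG contains CTTCC, and member promoters were richer in G and C than all promoters (medians of 57.6% and 52.4% over 250 bases). Of the 54 members with a single start in the promoter table, 14 held CCGGAAG or GAGGAAGT, on either strand, in the 100 bases before the start. A PU.1 peak lay within 1000 bases of the start in all 3 constructs for 7 of these 14, in 1 or 2 constructs for 1 and in none for 6. Of the 40 without these letters, 11 had the peak in all 3 constructs, 10 in 1 or 2 and 19 in none. Among the 14, the PU.1-like GAGGAAGT, on either strand, stood in Rpl36a, Rpl35 and Rpl13a. These had the peak in 3, 1 and 0 constructs. The 100 bases are shown for 5 genes, picked after their letters were seen, that had a PU.1 peak near the start in all 3 constructs. Capitals mark CCGGAAG, GAGGAAGT or their reverse complements.
Rpl37 (chr15:5116513-5116612, + strand): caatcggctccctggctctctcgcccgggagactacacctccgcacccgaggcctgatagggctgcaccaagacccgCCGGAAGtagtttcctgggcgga
Rps18 (chr17:33955666-33955765, - strand): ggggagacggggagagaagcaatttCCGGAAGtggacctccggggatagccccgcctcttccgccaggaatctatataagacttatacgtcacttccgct
Rps25 (chr9:44407614-44407713, + strand): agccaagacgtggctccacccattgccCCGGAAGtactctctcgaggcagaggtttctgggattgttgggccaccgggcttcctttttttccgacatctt
Rps6 (chr4:86857368-86857467, - strand): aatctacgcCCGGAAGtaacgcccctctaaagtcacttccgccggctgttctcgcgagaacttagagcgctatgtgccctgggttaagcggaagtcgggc
Rpl36a (chrX:134585554-134585653, + strand): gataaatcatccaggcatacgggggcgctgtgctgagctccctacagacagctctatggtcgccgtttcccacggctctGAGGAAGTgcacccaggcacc
The peaks are on the mm9 assembly and these letters on GRCm38.p6, so a peak was not placed on a letter.

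The expression values are RPKM, read counts scaled to transcript length and library depth, from 1 table deposited by the authors. Implied depth was 10.8 to 14.0 M reads in BV2 libraries and 28.8 to 47.8 M in primary ones. All 9 microglia markers reached 1 RPKM in both microglia libraries, and 1 or 2 of 9 did in BV2 libraries, where P2ry12 was at 0 to 0.061 RPKM. The table lists mouse transcripts, so mouse Htt (2.86 to 3.97 RPKM in BV2) does not check the human fragments. How reads shared by near-identical copies were counted was not given in the sources used here. Every BV2 library was transduced and shallower than every primary one, so cell type, transduction and depth cannot be told apart in what follows.

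In BV2 cells most ribosomal protein genes stood among the most abundant transcripts. In each BV2 library 74 to 76 of the 85 reached 100 RPKM, a level that 1.03% to 1.13% of all genes reached, and 2 did in each microglia library and 11 or 12 in the macrophage libraries, where 1.01% to 1.04% and 1.54% to 1.58% of all genes did. Their summed RPKM was 25684 and 21136 in empty-vector cells (24 h and the second time), 25723 and 21530 in wild-type-fragment cells, and 26311 and 25959 in mutant-fragment cells. It was 1382 and 1267 in microglia (Q7/7 and Q175/175) and 3644 and 4268 in macrophages. The lowest BV2 library was thus far above the highest primary one. As a share of the summed RPKM of all genes, the members held 11.8% to 14.6% in BV2 cells, 0.173% and 0.188% in microglia, and 0.979% and 1.10% in macrophages. That sum was itself unequal, at 176587 to 197487 in BV2 cells, 799758 and 675858 in microglia, and 372312 and 387223 in macrophages. As a share of the reads on genes, the members held 4.58% to 5.75% in BV2 cells. The read share was 0.289% and 0.284% in microglia, and 0.522% and 0.586% in macrophages. The median member stood between 240.4 and 299.8 RPKM in BV2 libraries and between 4.89 and 9.34 RPKM in primary libraries. In a bulk sample, fewer cells of a type and less RNA per cell cannot be told apart.

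**Figure D1:**
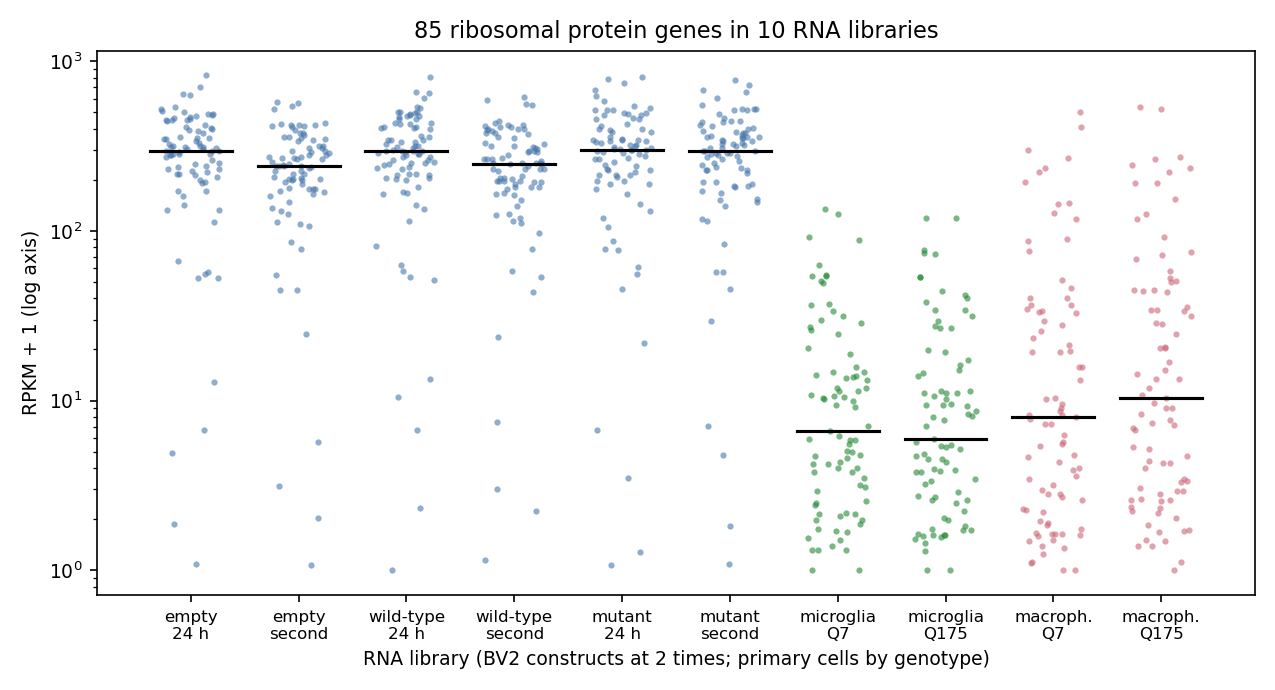
RPKM + 1 on a log axis for the 85 genes (points) in each of the 10 RNA libraries, with the median as a bar. The medians of the 6 BV2 libraries lie between 240.4 and 299.8 RPKM and those of the 4 primary libraries between 4.89 and 9.34 RPKM.

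Within BV2 cells the members lay close together. In each BV2 library, 81 of 85 genes reached 10 RPKM. The genes that stood below were mostly the paralogs with tissue-restricted expression: Rpl10l, a testis gene made from Rpl10, was at 0 to 0.155 RPKM, Rpl3l, the heart and skeletal muscle form of Rpl3, at 0.283 to 1.33 RPKM, and Rpl39l at 4.73 to 9.49 RPKM. The primary cells spread the same proteins over a far wider range. There 10 to 19 genes were under 1 RPKM per library, against 1 or 2 in BV2 libraries, while the highest gene reached 118 to 538 RPKM. Across 84 members, levels ranked alike within a cell type (Spearman's rho of 0.98 between empty-vector and wild-type-fragment cells at 24 h, 0.99 between the microglia libraries and 0.98 between the macrophage libraries) and less alike between BV2 and primary cells (0.33 for microglia and 0.28 for macrophages, both Q7/7 against the empty vector at 24 h). These coefficients are across genes that share each library, and describe these libraries only.

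By mean over the 10 libraries the highest member was Rplp1 (chr9:61761090-61762317, minus strand, mm9), a protein of the stalk that recruits translation factors. It stood at 629.8 and 543 RPKM in empty-vector cells, 655 and 558 in wild-type-fragment cells, 743 and 677 in mutant-fragment cells, 125 and 118 in microglia and 500.2 and 520 in macrophages. The macrophages lay just under the lowest BV2 library, and microglia far below both. Others among the 6 highest were Rps18, Rpl41, Rpl35 and Rpl26. The 6 lowest were Rps15a, Rpl7l1, Rpl39l, Rps4l, Rpl3l and Rpl10l.

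Rps18 and Rpl35 shared the high BV2 level and not the primary one. Rps18 (chr17:34088944-34092586, minus strand, mm9) was at 573 to 822 RPKM in BV2, 10.3 and 10.4 in microglia and 9.21 and 19.4 in macrophages. Rpl35 (chr2:38857101-38860651, minus strand, mm9), a large subunit protein near the exit of the peptide tunnel, was at 523 to 809 RPKM in BV2, 1.57 and 1.48 in microglia and 7.27 and 5.68 in macrophages. Neither gene's BV2 values overlapped with any primary value, and the share of all genes of which this holds was not counted.

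The comparison of the 4 BV2 control libraries (empty vector and wild-type fragment) with microglia places the cell line beside its primary counterpart. Of 84 members tested, 83 were higher in BV2 cells and 0 lower (limma on log2(RPKM + 1), Benjamini-Hochberg over all 11790 genes), against 40.4% and 28.8% of all genes tested. The median member difference was 5.04 on the log2 scale and that of all genes 0.24. Rps4l was the 1 member that did not pass, with a log2 difference of -0.03 ± 0.31 (SE). Against macrophages 76 of 84 members were higher in BV2 cells and 3 lower (background 23.0% and 40.4%), with a median of 4.37 and an all-gene median of -0.26. Both comparisons share the BV2 libraries.

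The largest differences were in genes that are nearly unread in the primary libraries. Rps23, a protein of the decoding centre of the small subunit, was at 399, 431, 430 and 406 RPKM in the control libraries, 0.69 and 0.63 in microglia and 0.84 and 1.03 in macrophages. Its fitted difference was 7.97 ± 0.14 (SE) on the log2 scale against microglia (limma, adjusted p = 7.25e-10). Rpl23a, Rpl35, Rpl38, Rpl19, Rps29, Rpl11 and Rps28 followed against microglia, with log2 differences of 7.45 to 7.91 on the RPKM + 1 scale. Against macrophages Rps29, Rps23, Rps27, Rpl19, Rps12, Rpl23a and Rps28 led, with 7.30 to 7.92. In reads, Rps23 had 2433 to 3313 per control library and 10 to 27 per primary library. Since the primary values are near 1 RPKM, the fitted size depends on the pseudocount.

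**Figure D2:**
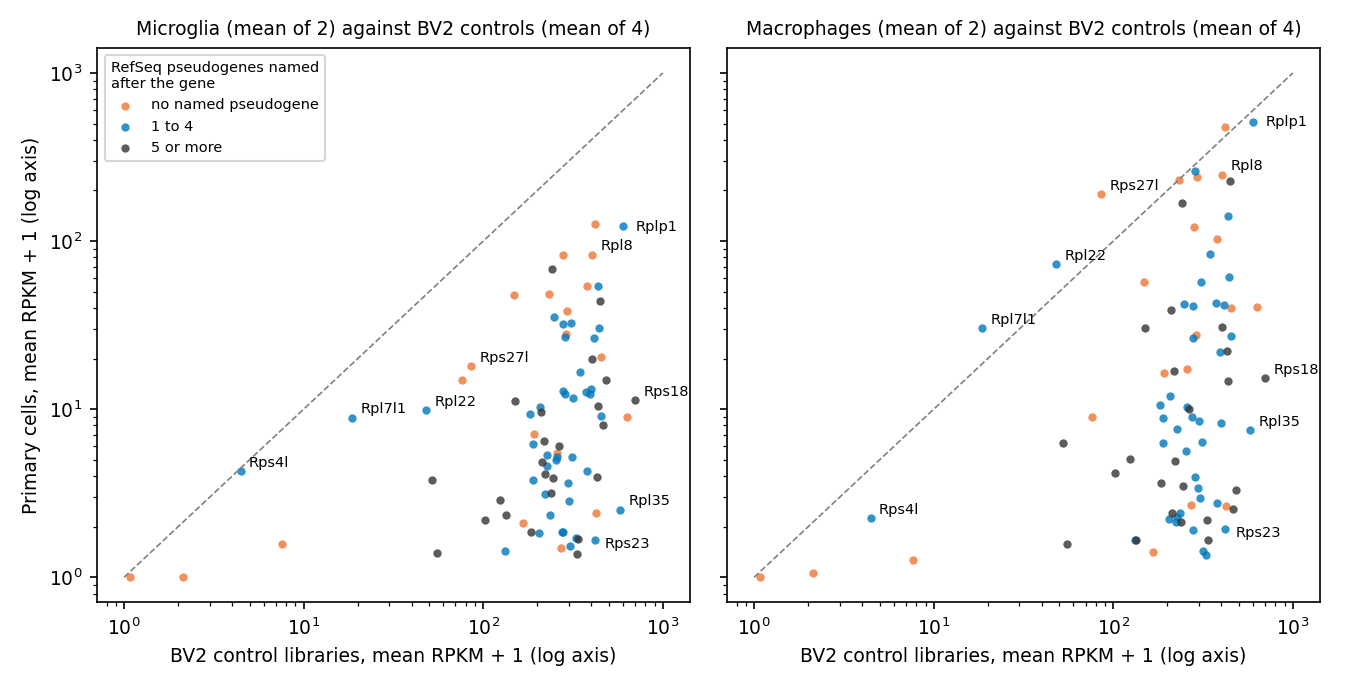
Mean RPKM + 1 in microglia (left) and macrophages (right) against the mean of the 4 BV2 control libraries, log axes, 1 point per gene, coloured by the number of RefSeq pseudogenes named after it. The dashed line marks equal levels: in the right panel Rps27l, Rpl22 and Rpl7l1 lie above it, and genes near 300 RPKM in BV2 cells spread over all primary levels.

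The gap was uneven among genes of like role. In the P stalk, Rplp1 differed from microglia by 2.29 ± 0.13 (SE) on the log2 scale and Rplp0, which anchors the stalk, by 3.86 ± 0.17, with Rplp2 at 3.24 ± 0.22. Against macrophages Rplp0 and Rplp2 were higher in BV2 cells by 2.86 and 2.50, and Rplp1 gave 0.22 ± 0.13 (limma, adjusted p = 0.165). The proteins that carry the 5S ribosomal RNA and bind MDM2 under ribosomal stress were both higher in BV2 cells than in microglia, Rpl5 by 5.65 and Rpl11 by 7.51. Rps6, the substrate of S6 kinase, was at 197 to 251 RPKM in BV2 cells, 1.94 and 2.36 in microglia and 0.95 and 1.31 in macrophages. Rpsa, also known as the laminin receptor, stood at 197 to 265 RPKM in BV2 cells and at 2.95 to 4.16 RPKM in primary cells. The ubiquitin-like fusion Fau (238 to 358 RPKM in BV2, 2.38 to 2.79 in primary cells) and the ubiquitin fusion Rps27a (279 to 342 RPKM in BV2, 1.60 to 7.99 in primary cells) were separated in the same way. Rpl13a was at 203 to 318 RPKM in BV2 cells and at 32.5 to 49.7 RPKM in all 4 primary libraries, and Rps19 and Rps24, which are mutated in Diamond-Blackfan anaemia, were at 192 to 313 RPKM and 3.85 to 19.7 RPKM. No primary value of these genes lay inside the gene's BV2 range.

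The gap was compared with the number of pseudogenes that RefSeq names after each gene. Of the 85 members, 65 had at least 1, and there were 319 in all. Only symbols made of the gene's name and -ps were counted. Copies under other names were missed, so a gene with none named may still have copies. The 19 tested members with none had a median BV2-minus-microglia difference of 2.80, the 41 with 1 to 4 had 5.00, and the 24 with 5 or more had 5.44, on the log2 scale. The rank correlation was 0.38 over 84 genes against microglia and 0.39 against macrophages, a description across genes. Other genes at a mean of 100 RPKM or more in BV2 cells had medians of 3.41 (139 genes with no named pseudogene) and 4.52 (30 genes with 1 or more). They were filtered on a high BV2 level, so a high difference is partly built in, while the members were chosen by name. Without that filter, other genes had medians of 0.20 (11474 genes with none) and 1.90 (232 with 1 or more). Against macrophages the filtered genes had 1.15 and 3.06, the unfiltered ones -0.29 and 0.81, and the members 2.57, 4.91 and 5.07. The part of read assignment in the gap was not tested.

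Copies outside the rule kept a near-constant ratio to their gene in some pairs and not in others. Rps27rt, a retrotransposed copy of Rps27, was at 0.978 to 1.00 times the RPKM of Rps27 in 9 libraries and at 0.501 times in Q7/7 macrophages, where Rps27 had 4 reads. Rpl34-ps1 stood at 1.17 to 1.19 times Rpl34 in all 10 libraries. Rps15a-ps4 was at 3.9 to 4.66 times Rps15a in BV2 cells and 0.174 to 0.528 times in primary cells. Rps15a-ps6 was at 4.66 to 5.03 times Rps15a in BV2 cells, 0.753 and 0.899 in microglia, and 9.34 and 9.55 in macrophages. Rps19-ps3 was at 0.65 to 0.894 times Rps19 in BV2 cells and 0.0874 to 0.199 in primary cells. Rplp2-ps1 was at 0.546 to 0.582 times Rplp2 in BV2 cells and 0.499 to 1.42 in primary cells. Rpl31-ps12 was at 287 to 399 RPKM in BV2 cells and 0 to 0.522 in primary cells, where Rpl31 itself had 0.606 to 3.41. Genes of other kinds behaved alike: Ppia, which encodes cyclophilin A, was at 329 to 612 RPKM in BV2 cells and 0.906 to 3.24 in primary cells. Of members at 100 RPKM or more in every BV2 library, 22 of 73 (30.1%) were under 5 RPKM in every primary library, and so were 16 of 116 other genes (13.8%). Granulocyte markers also moved with the cell source. All 8 summed to 0.6 to 4.2 RPKM in BV2 libraries, with S100a9 at 0, and to 1799 and 572 RPKM in microglia and 423 and 214 RPKM in macrophages, and their part in the gap was not tested.

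Microglia and macrophages were then compared with each other. Of 84 members, 10 were higher and 41 lower in microglia (limma over 10 libraries, Benjamini-Hochberg over 11790 genes), against a background of 15.9% and 41.9% of all genes tested. The median member difference was -0.61 on the log2 scale and that of all genes -0.42. The counts depended on the scaling. With each library centred on its median, 19 members were higher and 25 lower, and with quantile normalization 19 and 23, with a median of 0.02. Among the 39 members at a mean of 10 RPKM or more in primary cells, 1 was higher and 30 lower in microglia (median -1.36), and among the 45 below it 9 were higher and 11 lower (median -0.13). The split used the same 4 libraries, so a high level in macrophages alone can place a gene above it. Rpl13, at 2.99 and 2.89 RPKM in microglia and 14.7 and 27.5 in macrophages, is such a gene. The counts of the split are thus no independent result, and no share of all genes was computed at this cut. The summed granulocyte markers were 1799 and 572 RPKM in microglia and 423 and 214 in macrophages, with 8 of 8 and 7 or 8 of 8 at 1 RPKM or more, and their part was not tested.

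The paralog pair Rps27 and Rps27l stood at the 2 ends of this comparison. Rps27 was at 13.0 and 8.38 RPKM in microglia and 0.39 and 0.49 in macrophages, a log2 difference of 3.00 ± 0.27 (SE) (limma, adjusted p = 2.11e-05). Rps27l, known as a target of p53, was at 17.7 and 16.3 RPKM in microglia and 144 and 234 in macrophages, a log2 difference of -3.36 ± 0.39 (limma, adjusted p = 9.20e-05). For both genes the microglia and macrophage values did not overlap. Both were named as the ends of the order, so this separation is partly built in, and its share among all genes was not counted. The ratio of Rps27l to Rps27 was 0.155 to 0.44 in BV2 libraries, 1.36 and 1.95 in microglia, and 370 and 475 in macrophages, where Rps27 rests on 4 and 8 reads. Rps27l, Rpl22 and Rpl7l1 were the 3 members lower in BV2 controls than in macrophages. For Rps27l the value was -1.17 ± 0.34 (limma, adjusted p = 0.0137), a call lost without the Q175/175 macrophage library (-0.83, adjusted p = 0.144) and with quantile normalization (-0.57, adjusted p = 0.185). For Rpl22 it was -0.58 ± 0.18 (limma, adjusted p = 0.0179), lost without the Q7/7 macrophage library (-0.29, adjusted p = 0.187), with median centring (-0.29, adjusted p = 0.284) and with the empty vector as the only control (-0.56, adjusted p = 0.0781). With quantile normalization its sign turned (0.02, limma, adjusted p = 0.949). For Rpl7l1 it was -0.77 ± 0.29 (limma, adjusted p = 0.0438), lost without any 1 of the primary libraries or of the 2 control libraries of 24 h (adjusted p of 0.0588 to 0.2). It was also lost with a pseudocount of 0.1, no filter on low values, quantile normalization, median centring and the empty vector alone (limma, adjusted p of 0.0536 to 0.362).

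A second pair also changed order. Rpl22 was at 9.28 and 8.52 RPKM in microglia and 86.3 and 57.4 in macrophages, a log2 difference of -2.85 ± 0.20 (SE) (limma, adjusted p = 5.26e-06). Its paralog Rpl22l1 was at 14.8 and 12.9 RPKM in microglia and 6.25 and 9.73 in macrophages, a difference of 0.75 ± 0.20 (limma, adjusted p = 0.0110) that was lost without the Q7/7 microglia library (adjusted p = 0.0796) or the Q7/7 macrophage library (adjusted p = 0.0696). Rpl22l1 exceeded Rpl22 in every BV2 and microglia library, at 1.26 to 1.85 times and 1.52 to 1.60 times, and was at 0.0724 and 0.170 times in macrophages. Rpl7l1 relative to Rpl7 was 0.0290 to 0.0813 in BV2 cells, 0.670 and 0.730 in microglia, and 1.74 and 1.15 in macrophages. Rpl7l1 itself was at 8.45 and 7.35 RPKM in microglia and 31.7 and 27.4 in macrophages, and at 11.9 to 28.5 in BV2 cells.

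The other members higher in microglia were Rpl10, Rpl10a, Rps12, Rps25, Rps13, Rpl12, Rps6 and, named to complete the 10, Rpl24. Rpl10, which joins the large subunit last, was at 13.8 and 14.1 RPKM in microglia and 2.19 and 2.45 in macrophages, a log2 difference of 2.17 ± 0.17 (SE). Rps25, which is needed by several viral internal ribosome entry sites, lost its call without either microglia library, with adjusted p from limma of 0.0817 (Q7/7 left out) and 0.0718 (Q175/175 left out). Rpl12 lost it without any 1 of the 4 primary libraries, with adjusted p from limma of 0.0630 to 0.228. Those lower in microglia by most, after Rps27l, were Rpl34, Rpl22, Rps20, Rpl13, Rpl26, Rps26 and Rpl28, with log2 differences of -3.25 to -2.28. Rps20, at 35.4 and 39.5 RPKM in microglia and 233 and 244 in macrophages, had no pseudogene named after it, and copies under other names were not counted. Rpl34 carries a near-copy in the table, Rpl34-ps1, with the same ratio in every library.

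**Figure D3:**
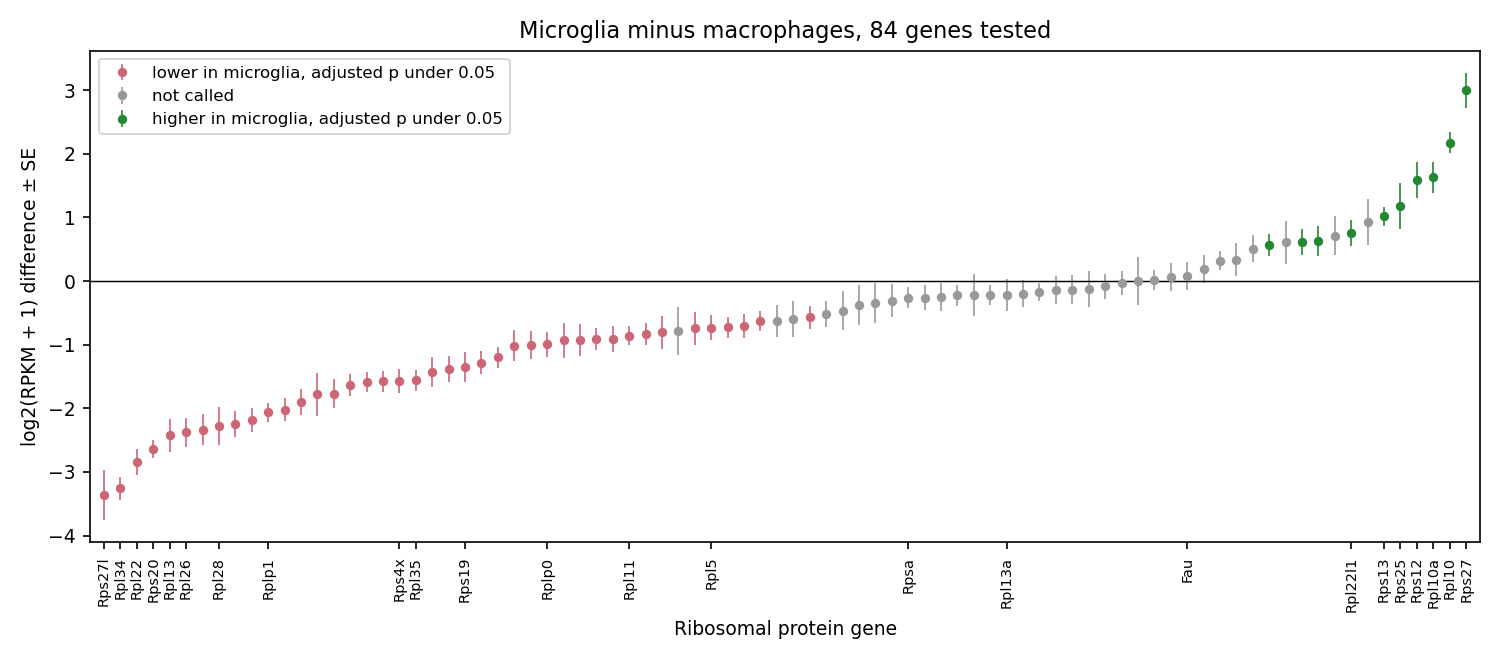
Log2(RPKM + 1) difference, microglia minus macrophages, with its standard error for the 84 genes tested, in order of size, some of them named. Colours mark genes that passed an adjusted p of 0.05 in either direction: 10 were higher in microglia and 41 lower, with Rps27 and Rps27l at the ends.

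The mutant fragment was compared with both control constructs in BV2 cells. No ribosomal protein gene passed: 0 of 84 were higher and 0 lower (limma, 6 libraries, 2 residual degrees of freedom), against 0.29% and 0.058% of all 10350 genes tested. At an unadjusted p under 0.05 there were 6 members, and 2094 of all genes. The median member difference was 0.13, with 71 of 84 positive, beside -0.003 over all genes, of which 49.5% were positive. The small subunit (median 0.15, 34 genes) and the large subunit (0.12, 50 genes) gave near values. The wild-type fragment against the empty vector, the background for this comparison, gave 0 members in either direction (background 0.0% and 0.0%), 0 members and 66 of all genes at an unadjusted p under 0.05 by limma, and a median of 0.01. Its largest values were in Rpl39l (0.52), Rpl39 (0.23) and Rpl3l (0.22), and its lowest in Rpl13 (-0.12), Rps14 (-0.10) and Rpl18 (-0.09).

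The largest values were in Rpl7l1, Rps12 and Rpl35 on the positive side. Rpl7l1 was at 20.9 RPKM in mutant-fragment cells at 24 h, where the controls were at 11.9 and 12.4, and at 28.5 at the second time, where the controls were at 23.5 and 22.7. It lay above both controls at each time, with a log2 difference of 0.51 ± 0.17 (SE) (limma, adjusted p = 0.206). Rps12 was at 626 and 605 RPKM, with the controls at 418 to 528 (0.42 ± 0.15, limma, adjusted p = 0.219), and Rpl35 at 809 and 723 RPKM, with the controls at 523 to 640 (0.41 ± 0.14, limma, adjusted p = 0.212). Neither gene's mutant values overlapped with the controls. These genes were named for the size of their difference, so such separation is partly built in. The share of all genes with such separation was not counted. On the negative side Rpl3l (-0.47), Rpl7 (-0.25) and Rpl37a (-0.12) had the lowest values. Rpl7 was at 312 and 350 RPKM in mutant-fragment cells and at 372 to 411 in the controls. Single libraries mattered here: Rps12 passed without the mutant library of 24 h (0.53, limma, adjusted p = 0.0438). Without that of the second time Rpl7l1 (0.74, adjusted p = 0.0137), Rpl3l (-0.70, adjusted p = 0.0173) and Rpl37a (-0.58, adjusted p = 0.0220) passed in limma. Of all 84 members, 6 were called higher and 0 lower without the first of these libraries, where 7.12% and 13.3% of all genes were. Without the second, 2 were called higher and 6 lower, where 19.5% and 17.6% of all genes were. In these refits the mutant fragment is 1 library, assumed to vary like the 4 control libraries that alone give the spread (1 residual degree of freedom), so they compare that library and not the construct.

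The differences of the mutant fragment were unlike at the 2 times. At 24 h the median member differed from the mean of the controls by 0.003, with 44 of 84 positive (53.7% of all genes). At the second time it differed by 0.25, with 78 of 84 positive (47.3% of all genes). The same values can be read along time. From 24 h to the second time the median member changed by -0.23 with the empty vector (75 of 84 negative), by -0.23 with the wild-type fragment (80 negative) and by -0.01 with the mutant fragment (43 negative), while all genes had medians of 0.12, 0.14 and 0.08. Of all genes, 59.6%, 62.9% and 55.5% were positive in these changes. Over the 3 constructs the second time against 24 h gave 0 members higher and 0 lower by limma (background 0.0% and 0.0%), 6 members and 2812 of all genes at an unadjusted p under 0.05, and a median of -0.17. Without either mutant-fragment library, 23 members passed as lower and 2 as higher at the second time, against 14.2% of all genes lower and 30.7% or 30.8% higher. The 4 control libraries alone then give the value and its spread, with 1 residual degree of freedom.

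**Figure D4:**
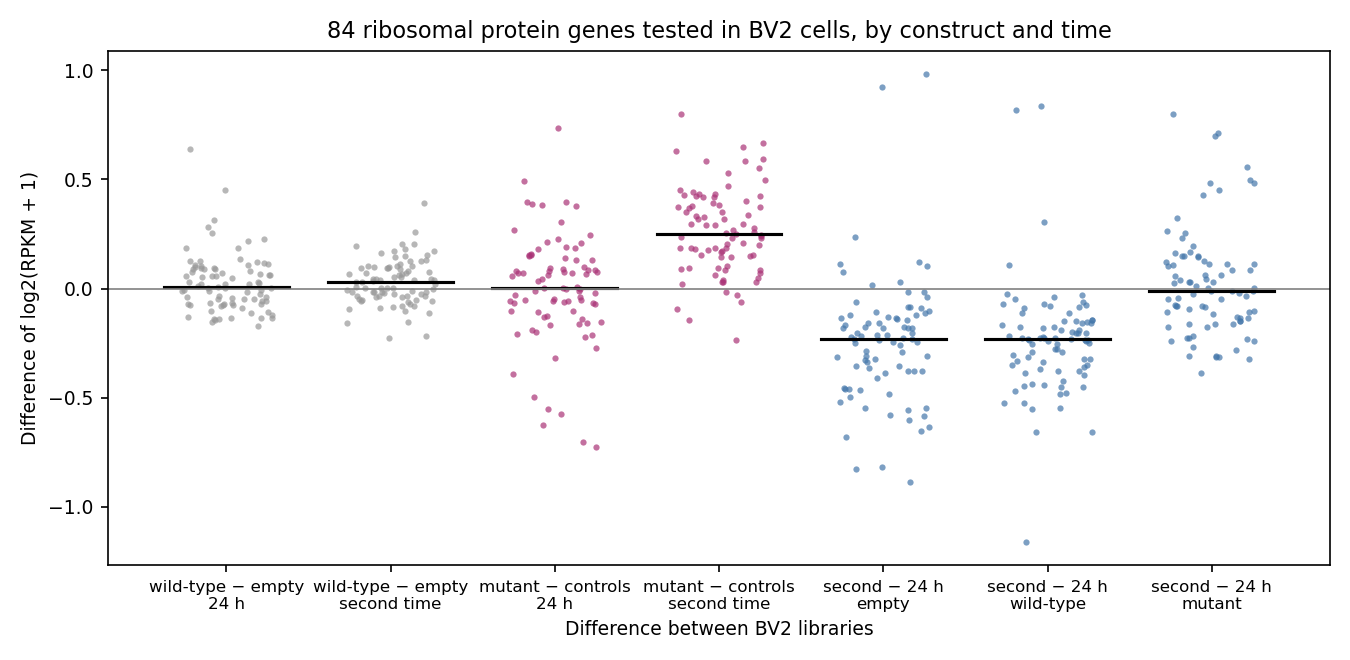
Differences of log2(RPKM + 1) between BV2 libraries for the 84 genes tested, 1 point per gene, with the median as a bar. Mutant-fragment cells stand at a median of 0.003 above the controls in the 24 h libraries and 0.25 in the second-time libraries. The 2 control constructs have medians of -0.23 for the second time minus 24 h.

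A test of the mutant fragment by time was added after seeing the medians above, with both control constructs as 1 group. The mutant fragment has 1 library at each time, so the spread comes from the 2 control constructs alone, and the test is no independent support for those medians. It called 10 of 84 members as higher at the second time and 0 as lower (limma, Benjamini-Hochberg over 10350 genes), against a background of 11.9% and 16.2% of all genes, so the share of members called higher equalled that of all genes. The median member value was 0.24 and that of all genes -0.09. Among the 10 were Rps4l, Rpl15, Rpl37a, Rps27, Rpl7a, Rpl36, Rpl28, Fau and Rpl31, named because the test called them. Rpl37a, for example, was at 330.0 and 331 RPKM in the controls at 24 h with the mutant fragment at 221. At the second time the controls were at 280.4 and 295 and the mutant fragment at 363. The mutant value was the lowest of 3 at 24 h and the highest of 3 at the second time. With quantile normalization 4 members were called higher and 1 lower, with a median of -0.04, and without the empty-vector or the wild-type-fragment library of the second time 0 were called, where 23 and 0 of all genes were.

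Some members did not follow the shift between times. Rps27l stood at 56.0, 61.5 and 76.8 RPKM in the 24 h libraries (empty vector, wild-type and mutant fragment) and 112, 110.5 and 113 in the others. Rpl7l1 stood at 11.9, 12.4 and 20.9 RPKM and then 23.5, 22.7 and 28.5. Every second-time value of either gene was above every 24 h value. Both were named for the size of this difference, so the separation is partly built in, and its share among all genes was not counted. The log2 differences were 0.79 ± 0.15 (SE) and 0.72 ± 0.16, with adjusted p from limma of 0.0680 and 0.0801. Both passed without either mutant-fragment library, with adjusted p from limma of 5.44e-03 to 5.52e-03. The lowest were Rpl36 (-0.51), Rpl3 (-0.48) and Rpl10a (-0.46), with adjusted p from limma of 0.118 to 0.214.

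The genotype of the primary cells was compared over both cell types. Of 73 members tested, 0 were higher and 0 lower in Q175/175 cells (limma, 4 libraries, 1 residual degree of freedom), against 0.112% and 0.225% of 10687 genes, with 5 members and 283 of all genes at an unadjusted p under 0.05. The median member difference was 0.11 and that of all genes 0.06. The 2 cell types differed in sign, with 1 library on each side and no test. In microglia the median was -0.11 with 55 of 73 negative (all genes -0.08), and in macrophages 0.37 with 62 of 73 positive (all genes 0.18). Of all genes tested, 33.3% were positive in microglia and 70.6% in macrophages, so most genes leaned the same way as the members. Rps25 had the highest fitted value (0.67) and Rpl28, Rps14 and Rpl22 the lowest (-0.45, -0.42 and -0.35), each with the same standard error of 0.26, because limma used 1 shared spread. Rps25 was at 3.71 and 3.49 RPKM in Q7/7 and Q175/175 microglia and at 0.24 and 2.32 in macrophages.

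ChIP-seq of BV2 cells gave peaks of H3K4me2, a histone mark found at active regulatory regions, and of 3 transcription factors of myeloid cells, PU.1, C/EBPα and C/EBPβ. Each construct and antibody had 1 library, so no test was made. H3K4me2 lay within 1000 bases of the start in all 3 constructs at 80 of 85 members (background 88.2% of the 10350 genes tested) and in at least 1 construct at 82 (91.2%). The 3 members without it were Rpl10l, Rpl39l and Rps4l, all among the lowest in BV2 cells. PU.1 lay there in all 3 constructs at 23 of 85 (21.8%) and in at least 1 at 47 (45.5%). C/EBPα did so at 3 (5.42%) and 21 (25.6%), and C/EBPβ at 24 (25.2%) and 54 (60.7%). In percent of the 85, PU.1 in all constructs was 27.1 and C/EBPβ 28.2, both near the background, and among 169 other genes at 100 RPKM or more they were 27.8 and 35.5. By construct, PU.1 peaks stood at 42, 26 and 34 members with the empty vector, the wild-type and the mutant fragment, while the lists held 71846, 53835 and 64744 peaks in all. C/EBPβ peaks stood at 28, 46 and 42 members with 35964, 69522 and 47893 peaks in all, so for both factors the member counts had the order of the list lengths. The 23 members with PU.1 in every construct included Rps6, Rps18, Rps25, Rpl37 and Rpl36a, whose upstream letters are shown above, and also the paralog Rpl7l1 and the Rps27 gene.

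**Figure D5:**
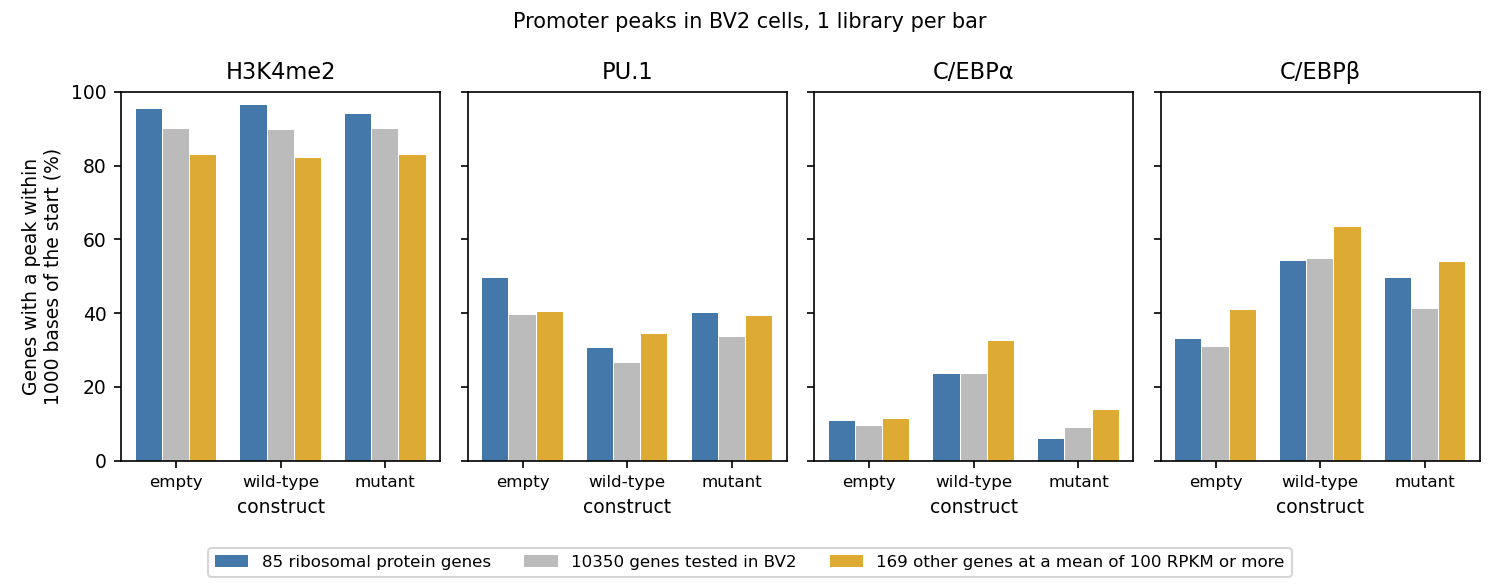
Percent of genes with a deposited peak within 1000 bases of the start in BV2 cells, by antibody and construct, for the 85 ribosomal protein genes, the 10350 genes tested and 169 other genes at a mean of 100 RPKM or more. For H3K4me2 the members stand at 94.1% to 96.5% and all genes at 89.6% to 90.0%, and for PU.1 the members at 30.6% to 49.4%.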

How the data were processed

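Polyadenylated RNA of 10 libraries and peaks of 12 ChIP libraries were used. The authors deposited RPKM values for 31641 RefSeq transcripts, 1 table for all libraries. STAR 2.0.3e, HOMER and edgeR (RNA), Bowtie and HOMER (ChIP) and the mm9 build are named in the submitters' processing notes. Peaks came as 1 list per library, and the score the authors deposited with each peak was not used. RPKM steps came out as whole reads within 0.1 for 100% of low values, which gave the implied depth. limma 3.58.1 (R 4.3.3) was fitted to log2(RPKM + 1), which understates the change of low genes, for genes with 1 RPKM or more in at least 2 libraries, with Benjamini-Hochberg adjustment and a threshold of 0.05. BV2 fits had construct and time as terms, cell types were compared over all 10 libraries, and genotypes over 4. Fits were tested on simulated data. A gene counted as marked where a peak lay within 1000 bases of its start. Python 3.11.15 and pandas 2.3.3 handled tables. The text names the 6 highest and 6 lowest genes by mean level, per comparison up to 8 called genes in each direction or the 3 largest where fewer than 3 passed, and the stalk, paralog, ubiquitin fusion and disease genes. The genes, the lists of TOP translation genes, regulators and mitochondrial ribosomal proteins and the markers were chosen with earlier results of these data known. A few genes that this rule names are not reported here. Alternatives changed the pseudocount, filter, scaling, transcript choice, model and libraries.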

Additional observations from a re-analysis of the deposited data

Results flagged for a closer look

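The genotype difference of the ribosomal protein genes had opposite signs in the 2 primary cell types. The median member stood at -0.111 in microglia and at 0.37 in macrophages, Q175/175 minus Q7/7, each from 1 library per genotype, and the difference between the cell types was not tested. All genes moved the same way by less, with medians of -0.078 and 0.18.

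In a test of the mutant fragment by time, added after seeing the data, limma called 10 of 84 members higher, with a median of 0.235. That share equals the 11.9% of all 10350 genes called higher, and 0 members were called without either control library of the second time. The mutant fragment has 1 library at each time, so the spread comes from the control constructs alone and the test compares those libraries.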

How the results depend on the processing

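The primary cells rest on 2 libraries per type and the BV2 fits on 2 residual degrees of freedom, and genes near 1 RPKM in primary cells rest on few reads. Leaving out single libraries, the mutant comparison gave 0 to 6 members higher and 0 to 6 lower, and the wild-type-fragment median lay between -0.05 and 0.075. At the second time, 0 to 2 members were higher and 0 to 23 lower, and 1 was higher with a pseudocount of 5, with transcripts of 200 bases or more and with no construct term. Microglia against macrophages gave 6 to 12 members higher and 32 to 47 lower without single libraries (6 higher without either microglia library or the Q7/7 macrophages). With quantile normalization it gave 19 higher, 23 lower and a median of 0.016, and with median centring 19, 25 and -0.103. The median of BV2 controls minus microglia was 5.22 and 4.41 with pseudocounts of 0.1 and 5, 5.01 with no filter, 5.38 with quantile normalization, 4.82 with median centring, 5.07 with empty vector only and 5 to 5.13 without single libraries. Against macrophages it was 3.85 with a pseudocount of 5 and 5.36 with quantile normalization. There 0 members were lower with quantile normalization, where Rpl22 turned to 0.02, and 1 with median centring, with the empty vector only and without either macrophage library (1 to 3 over all libraries left out). The genotype comparison called 1 member higher with a pseudocount of 0.1. The test of mutant by time gave 21 higher and 1 lower with a pseudocount of 5, 6 higher with no filter, 4 higher and 1 lower with quantile normalization, 17 higher with median centring, 19 with the trend and robust settings and 0 to 7 without single libraries. Its median was 0.239 and 0.218 with pseudocounts of 0.1 and 5, -0.035 with quantile normalization, 0.34 with median centring and 0.228 to 0.26 without single libraries. Peaks that cover the start itself were fewer: 7 and 46 members for H3K4me2 (all constructs, at least 1), 7 and 25 for PU.1, 1 and 9 for C/EBPα, and 5 and 24 for C/EBPβ. The causes were not tested beyond what each setting changes by construction. The other 316 values stayed within the limits set. No block by replicate number was fitted, because the labels give no such numbers. The BV2 fits had time as a term, so constructs were compared within each time, and without that term 0 members were called in the mutant comparison (median 0.127) and in the wild-type-fragment comparison (0.013).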

Other observations

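The mitochondrial ribosomal proteins, which build the separate ribosome of mitochondria, gave a smaller gap between BV2 cells and primary cells than the cytosolic ones in the values below, though the difference between the lists was not tested. Of 76 tested, 64 were higher and 0 lower in BV2 controls than in microglia (limma, median 1.42), and 32 were higher and 8 lower than in macrophages (median 0.42). In microglia against macrophages 0 were higher and 46 lower (median -0.94). The shares of all genes called higher and lower were 40.4% and 28.8% in BV2 controls against microglia, 23.0% and 40.4% against macrophages, and 15.9% and 41.9% in microglia against macrophages, which are the background for every list here. At the second time against 24 h their median was 0.49 with 0 called, where the cytosolic members had -0.17, and the mutant fragment gave 0.13 with 0 called.

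Other translation genes whose messenger RNAs carry a TOP motif gave 20 higher and 1 lower of 21 in BV2 controls against microglia (limma, median 3.10), and 17 higher and 1 lower against macrophages (median 1.58). The gene called lower in both was Gas5, a noncoding host of small nucleolar RNAs, with log2 differences of -4.72 and -4.13. In microglia against macrophages 0 were higher and 16 lower (median -1.44). Of 26 regulators of ribosomal protein synthesis, 12 were higher and 4 lower in BV2 controls than in microglia, with Eif4ebp1, the mTOR-controlled inhibitor of initiation, at 3.18 and Myc at -2.66. Against macrophages 8 were higher and 9 lower, and between microglia and macrophages 4 were higher and 11 lower. In the mutant, wild-type-fragment, time and genotype comparisons limma called 0 of the genes tested from the 3 lists. At an unadjusted p under 0.05 in limma stood 20.2%, 0.638%, 27.2% and 2.65% of all genes tested in these comparisons. So did 8, 0, 44 and 1 mitochondrial ribosomal proteins, of 76, 76, 76 and 74 tested. Of 21 TOP genes tested in each there were 0, 0, 3 and 0. The regulators gave 8, 0, 5 and 2, of 24, 24, 24 and 26 tested. The regulators' medians were 0.04, -0.02, 0.10 and 0.12, and those of the TOP genes 0.07, 0.02, -0.08 and -0.05.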
